A study of Mus musculus with 9 samples.

Results

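CpG methylation was followed over the potassium channel genes of the mouse nucleus accumbens, the ventral striatal region in which reward and aversion signals converge. The set holds every autosomal protein-coding gene of the mouse reference GRCm38 whose symbol starts with Kcn, which gave 92 of 20665 genes. The long noncoding RNA gene Kcnq1ot1 was not included, and 2 Kcn genes on the X chromosome were left out. Whole-genome bisulfite sequencing had been run on 9 libraries of frozen accumbens punches, 5 labelled Control and 4 labelled Susceptible. All libraries came from C57BL/6J mice, and the protocol text, which gives males of 8 weeks of age and 10 daily defeats by an unfamiliar CD1 aggressor, is attached to Control and Susceptible libraries alike, so how Control mice were handled is not stated. The labels do not say whether a punch came from 1 mouse or from several, so the tests measure the spread between these libraries. A punch holds neurons, glia and vessel cells, and bisulfite sequencing reads methylated and hydroxymethylated cytosine alike, so a level is an average over all of them.

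Potassium channels let potassium leave the cell, which holds the resting potential and ends each action potential. Voltage-gated channels (the Kv subfamilies Kcna, Kcnb, Kcnc, Kcnd, Kcnh and Kcnq, and the silent subunits Kcnf, Kcng, Kcns and Kcnv, which only work together with Kcnb subunits) open on depolarisation. Inward rectifiers (Kcnj) hold striatal projection neurons at their very negative resting potential and include the channels opened by G proteins and those closed by ATP. Two-pore channels (Kcnk) carry background leak. Calcium-activated channels of small conductance (Kcnn) shape the afterhyperpolarisation, as do members of the large-conductance Slo family (Kcnma1, Kcnt1, Kcnt2, Kcnu1) other than the testis gene Kcnu1. Auxiliary subunits (Kcnab, Kcne, Kcnip, Kcnmb) change gating and traffic. Promoters of CpG islands are usually unmethylated whether or not the gene is used, whereas CpG-poor promoters are methylated in most tissues.

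**Figure D1:**
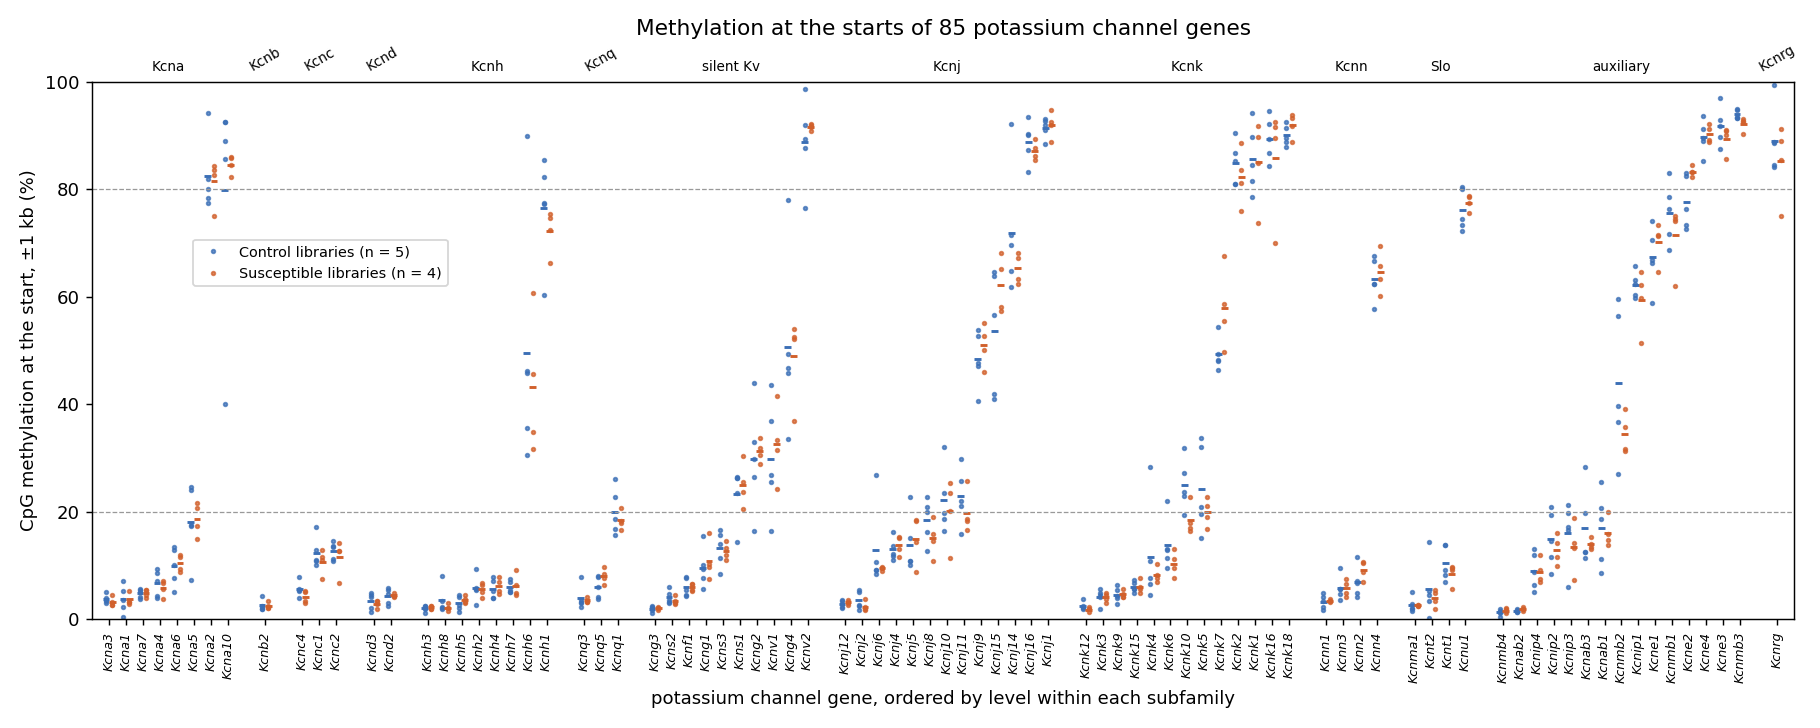
Methylation level (percent of calls read as methylated) within 1 kb of the start of each of 85 potassium channel genes, ordered by level within its subfamily; each dot is a library, short lines are group means, and dashed lines mark 20% and 80%. All Kcnb, Kcnc, Kcnd and Kcnq starts drawn have a mean over the 9 libraries below 20%, whereas the auxiliary subunits span from 1.38% (Kcnmb4) to 93.2% (Kcnmb3). The start is the outermost gene end, which in genes such as Kcna2, Kcnh1, Kcnh2, Kcnj12, Kcnk1 and Kcnmb3 is not a start that RefSeq lists.

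For each gene and library, the methylated calls and all calls were summed over the gene body and over the start with 1 kb on each side, and a level is the percentage of calls read as methylated. A gene was tested where every library had at least 3 CpGs and 20 calls, which held for 89 starts and 92 bodies. The starts of Kcnj13, Kcnj3 and Kcnk13 did not reach these limits. The tested starts held 105 to 10879 calls in a library. The start was the outermost gene end, by the strand in the RefSeq promoter table, for 68 genes. It need not be a start that RefSeq lists. For the other 24, among them Kcna1, Kcnk3, Kcnn2, Kcnt1, Kcnq1 and Kcnq3, the start was placed at whichever end was richer in CpGs, which gave the same end as the strand for 56 of the 68 genes with both.

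Of the 89 starts, 55 were low (below 20%), 20 intermediate and 14 high (above 80%). The low share was 61.8% for potassium channel genes and 59.8% for all 18709 genes tested. With only the starts set by a strand, it was 58.5% (38 of 65) against 60.1% (8905 of 14826). The high share was 15.7% against 21.6%. The median start stood at 12.2%, and at 10.4% over all genes.

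The sequences at both ends of this range differ in CpG content. 8 RefSeq promoter windows on GRCm38.p6, each with 250 bases before and 50 bases after a start, are given here, 5′ to 3′ on the strand of the gene, with every CG in capitals. Kcnmb4 (beta subunit of the large-conductance channel in neurons) had the lowest start and Kcnk18 (the leak channel TRESK of sensory neurons) one of the 5 highest. Kcnj6 and Kcne3 have 2 starts each with opposite levels. Kcnk10 and Kcnk7 were among the genes with the 5 smallest p-values between the groups at starts.

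Kcnmb4 (chr10:116473474-116473773, minus strand): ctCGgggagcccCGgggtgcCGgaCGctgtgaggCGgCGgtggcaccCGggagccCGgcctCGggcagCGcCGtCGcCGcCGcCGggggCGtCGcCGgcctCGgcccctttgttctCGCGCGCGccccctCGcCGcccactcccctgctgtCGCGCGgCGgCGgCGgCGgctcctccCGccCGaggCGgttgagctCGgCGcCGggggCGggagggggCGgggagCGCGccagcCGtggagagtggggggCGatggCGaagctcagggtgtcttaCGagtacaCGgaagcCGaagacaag
Kcnk18 (chr19:59219398-59219697, plus strand): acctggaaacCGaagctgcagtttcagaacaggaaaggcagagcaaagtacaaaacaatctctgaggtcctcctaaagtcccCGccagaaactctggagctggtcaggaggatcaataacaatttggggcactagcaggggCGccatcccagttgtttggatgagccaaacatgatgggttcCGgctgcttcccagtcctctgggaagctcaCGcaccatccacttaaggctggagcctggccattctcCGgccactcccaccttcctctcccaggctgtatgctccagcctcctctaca
Kcnj6, outer start (chr16:94997647-94997946, minus strand): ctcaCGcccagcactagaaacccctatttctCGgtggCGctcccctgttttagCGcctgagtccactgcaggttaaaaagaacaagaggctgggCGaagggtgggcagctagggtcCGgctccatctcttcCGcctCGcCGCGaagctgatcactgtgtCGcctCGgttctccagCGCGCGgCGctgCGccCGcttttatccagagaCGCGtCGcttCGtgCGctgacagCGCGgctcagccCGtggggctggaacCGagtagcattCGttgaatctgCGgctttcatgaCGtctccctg
Kcnj6, inner start (chr16:94856641-94856940, minus strand): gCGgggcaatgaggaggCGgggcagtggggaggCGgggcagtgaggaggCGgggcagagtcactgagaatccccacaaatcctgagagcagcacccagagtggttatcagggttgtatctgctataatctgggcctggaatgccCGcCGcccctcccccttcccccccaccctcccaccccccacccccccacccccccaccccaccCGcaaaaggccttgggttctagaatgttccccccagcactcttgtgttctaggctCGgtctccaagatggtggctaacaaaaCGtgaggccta
Kcne3, outer start (chr7:100176420-100176719, plus strand): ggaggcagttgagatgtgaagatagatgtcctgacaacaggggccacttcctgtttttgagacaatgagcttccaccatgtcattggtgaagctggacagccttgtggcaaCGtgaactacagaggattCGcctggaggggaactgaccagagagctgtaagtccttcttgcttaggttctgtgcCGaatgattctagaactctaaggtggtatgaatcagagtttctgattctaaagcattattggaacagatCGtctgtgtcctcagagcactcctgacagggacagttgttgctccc
Kcne3, inner start (chr7:100178433-100178732, plus strand): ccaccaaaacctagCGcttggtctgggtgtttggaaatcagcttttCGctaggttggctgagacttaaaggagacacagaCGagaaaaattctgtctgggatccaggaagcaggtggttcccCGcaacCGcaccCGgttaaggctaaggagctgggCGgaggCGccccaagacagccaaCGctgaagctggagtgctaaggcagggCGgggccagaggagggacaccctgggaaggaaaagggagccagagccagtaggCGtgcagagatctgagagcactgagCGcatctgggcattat
Kcnk10 (chr12:98578164-98578463, minus strand): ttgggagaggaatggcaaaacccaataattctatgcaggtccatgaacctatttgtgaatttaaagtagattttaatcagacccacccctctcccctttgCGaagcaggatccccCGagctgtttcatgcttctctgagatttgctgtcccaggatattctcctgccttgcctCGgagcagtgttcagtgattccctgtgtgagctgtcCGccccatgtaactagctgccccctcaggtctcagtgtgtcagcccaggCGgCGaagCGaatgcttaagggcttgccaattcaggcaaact
Kcnk7 (chr19:5704221-5704520, plus strand): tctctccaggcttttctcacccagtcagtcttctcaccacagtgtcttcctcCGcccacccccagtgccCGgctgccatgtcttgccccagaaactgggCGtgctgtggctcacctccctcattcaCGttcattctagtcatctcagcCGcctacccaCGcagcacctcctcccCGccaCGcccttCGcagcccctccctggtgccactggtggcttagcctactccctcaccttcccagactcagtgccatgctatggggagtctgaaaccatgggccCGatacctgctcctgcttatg

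The Kcnmb4 window held 48 CGs, all 48 listed in the files, and its level was 0.785% over the 9 libraries, from 0 to 1.85%. The Kcnk18 window held 6 CGs and stood at 86.8% (76.1 to 93.2%). In Kcnj6, which encodes GIRK2, a subunit of the G-protein-gated inward rectifier, the outer window with 30 CGs stood at 2.88% and the inner window with 9 CGs at 95.8%. Of these 9, only 1 was listed in all 9 libraries and 3 others in 1 to 3 libraries, so in most libraries that level is the value of a single CpG. In Kcne3, a single-pass subunit that holds Kcnq1 open in epithelia, the outer window held 4 CGs and stood at 89.8%, and the inner window held 12 CGs and stood at 2.91%.

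The Kcnk10 and Kcnk7 windows lay between these. Kcnk10 encodes the leak channel TREK-2, and its window of 7 CGs stood at 9.73%, with 51.4% in Control 5 as the one library far from the rest. Kcnk7 encodes a two-pore subunit without a known current, and its window of 10 CGs stood at 50.6%, with single CpGs between 24.3% and 62.6% on average.

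Over the 68 genes with a listed promoter, the median number of CGs in 300 bases was 9.5, and 14 over 16457 genes. It was 17 in the 42 promoters whose listed start was below 20%, against 22 over all such promoters, and 4 in the 12 above 80%, against 3. The hexamer GGGCGG, the core of the GC box bound by Sp1, was present on either strand in 35 of the 68 promoters (51.5%), against 47.3% of all promoters of this length. It was found in 26 of the 42 low promoters (61.9%, against 68.7% of all low promoters) and in 1 of the 12 high ones (8.33%, against 8.24%), and since the hexamer contains a CG, the counts are not independent of CpG content. The sequence TATAAA, read on the gene's strand, was found in 2 promoters (2.94%), against 9.08% of all. They were those of Kcnj9 and Kcnj13.

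Among the pore-forming Kv subunits, low starts were the rule. Every tested member of Kcnb (2), Kcnc (4), Kcnd (2) and Kcnq (5) was below 20%. Kcnb2, a delayed rectifier, stood at 2.51% over the 9 libraries. The A-type channel genes Kcnd2 and Kcnd3 stood at 4.31% and 3.13%. Of the genes of the M-current, Kcnq3 stood at 3.71% and Kcnq5 at 6.86%, and Kcnq1, the cardiac and epithelial member, was the highest of its subfamily at 19.2%. Kcnc1, a channel of fast-spiking neurons, stood at 11.6%.

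The Kcna and Kcnh subfamilies were split. In Kcna, 6 of 8 starts were low, among them Kcna1 (3.64%) and Kcna4 (6.25%), while Kcna2 (82.0%) and Kcna10 (82.0%) were high. In Kcnh, 6 of 8 were low, with Kcnh3 at 2.04% and Kcnh2, the ERG channel, at 5.63%. The others were Kcnh6 at 46.7% and Kcnh1 at 74.6%. For Kcna2, Kcnh1 and Kcnh2 these values are those of the outermost end, which is not a listed start. Their only listed starts, further in, stood at 2.70%, 12.6% and 59.9%, so the split depends on the position read. Of the silent subunits, 5 of 10 were low, from Kcng3 at 1.94% to Kcns3 at 12.9%, and the retinal subunit Kcnv2 was high at 90.1%.

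Inward rectifiers and leak channels covered the whole range. Of 13 tested Kcnj starts, 6 were low, 5 intermediate and 2 high. Kcnj12 (Kir2.2) and Kcnj2 (Kir2.1), the strong rectifiers of projection neurons, stood at 2.92% and 2.94%, Kcnj4 (Kir2.3) at 13.3%, Kcnj6 at 11.3% and Kcnj5 at 14.3%. For Kcnj12 and Kcnj4 these values are those of the outermost end. The only listed start of Kcnj12, 43.2 kb inside, stood at 91.0%, and that of Kcnj4, 7.27 kb inside, at 2.02%. Kcnj9 (GIRK3) was intermediate at 49.5%. The astrocytic channel gene Kcnj10 (Kir4.1) stood at 21.2% and its partner Kcnj16 (Kir5.1) at 88.1%. The pore genes of ATP-sensitive channels, Kcnj11 and Kcnj8, stood at 21.5% and 16.9%, and the renal Kcnj1 at 91.7%.

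Of 13 tested Kcnk starts, 6 were low, 3 intermediate and 4 high. The acid-sensitive leak channels Kcnk3 (TASK-1) and Kcnk9 (TASK-3) stood at 4.08% and 4.57%. High starts were those of Kcnk18 (90.9%), the pancreatic Kcnk16 (87.9%), Kcnk1 (85.4%) and Kcnk2 (83.7%). The Kcnk1 value is that of its outermost end, and its only listed start, 1.45 kb inside, stood at 6.86%. The calcium-activated Kcnn1, Kcnn2 and Kcnn3 stood at 3.31%, 7.87% and 5.76%, and Kcnn4, the intermediate-conductance channel of blood and epithelial cells, at 64.0%. In the Slo family Kcnma1, the pore of the large-conductance channel, stood at 2.59%, Kcnt1 at 9.49%, Kcnt2 at 4.78% and the testis gene Kcnu1 at 76.8%.

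The auxiliary subunits held both the lowest and the highest starts. Kcnab2 (1.66%) and Kcnmb4 (1.38%), both brain subunits, were the lowest starts of all 89 genes, followed by Kcng3. The Kv4 partners Kcnip2, Kcnip3 and Kcnip4 stood at 14.03%, 14.9% and 8.92%, and Kcnip1 at 61.0%. All 4 Kcne genes were above 60%, with Kcne1 at 68.6%, Kcne2 at 80.1%, Kcne4 at 90.02% and Kcne3 at 90.7%. Kcnmb3 was the highest of the tested starts at 93.2%, read at its outermost end. Its only listed start, 10.9 kb inside, stood at 88.5%, below that of Kcnk18 at 90.9%. Kcnrg, a regulator of channel assembly, stood at 87.4%.

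With the calls of all tested members pooled, the subfamilies kept much of their order from library to library. Kcnb read 2.15 to 3.88% over the 9 libraries and Kcnd 2.50 to 5.17%, and Kcnb was below Kcnd in 7 of 9. Kcnc, Kcnh and Kcnq followed, at 6.74 to 10.1%, 7.32 to 9.82% and 6.68 to 9.04%. Each of them was above Kcnd in 9 of 9 libraries, while Kcnh was above Kcnq in 5 of 9, so these neighbours did not differ beyond their spread.

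Kcna stood at 9.77 to 13.5%, silent subunits at 11.9 to 14.5%, Kcnn at 12.3 to 16.2% and Slo at 13.2 to 20.8%. Kcnj (17.6 to 20.2%) and Kcnk (17.8 to 22.5%) overlapped, with Kcnj above Kcnk in 6 of 9. The auxiliary subunits were highest at 22.4 to 27.7%, above Kcnj and Kcnk in 9 of 9 libraries. Kcnrg, as a single gene, read 75.1 to 99.5%. Members of a subfamily are not replicates, so the order describes these libraries. It is also an order of pooled calls. By the median member, Kcnn (6.81%) and Slo (7.14%) stood below Kcna (8.16%) and Kcnc (10.4%). Kcnn4 at 64.0% and Kcnu1 at 76.8% were the highest members of Kcnn and Slo. The order also depended on the setting. The mean pooled level of Slo was 16.1% with all listed CpGs and 5.71% with at least 20 calls at a CpG. Kcna stood at 5.88% and Kcnh at 12.95% at the first start that RefSeq lists, against 11.99% and 8.54%. With 500 bp on each side Kcnn stood at 6.75%, against 14.7%. These settings also changed the number of potassium channel genes tested, to 88, 91 and 84. The genes pooled could therefore change together with the CpGs read, and their parts were not separated.

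**Figure D2:**
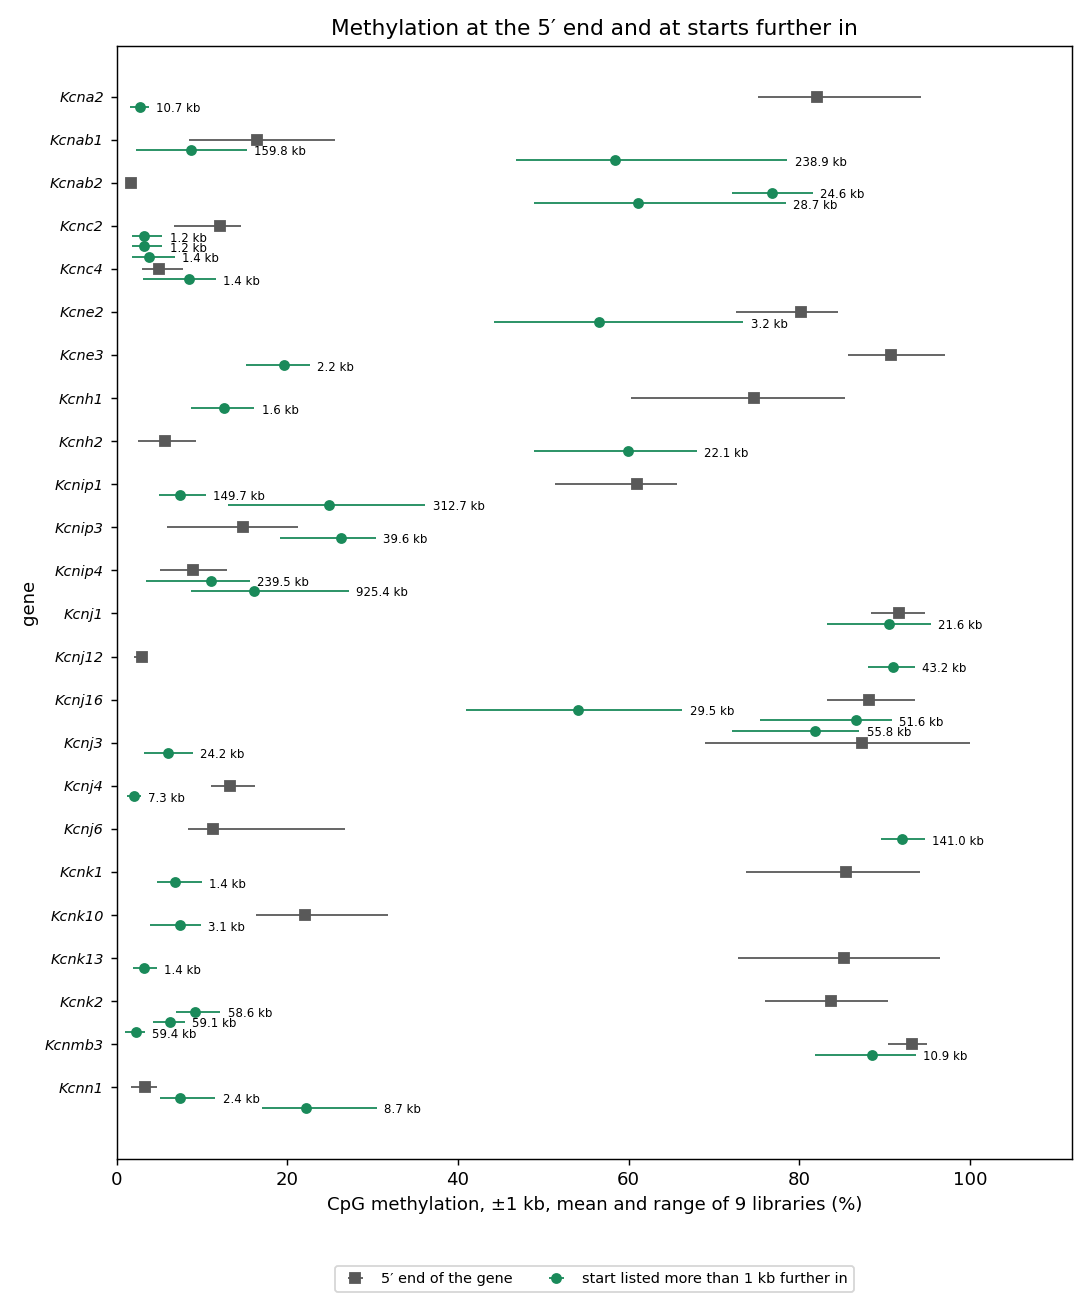
Level within 1 kb of the outermost 5′ end (squares) and of starts that RefSeq lists more than 1 kb further in (circles, with the distance) for each gene that has one; symbols are means and bars the range of 9 libraries. Kcna2, Kcnk1, Kcnk2 and Kcne3 pass from high to low, and Kcnj6, Kcnj12, Kcnab2 and Kcnh2 from low to higher levels.

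In several genes RefSeq lists a start away from the outermost end, and the level depended on which of these positions was read. This comparison was added after the data had been seen. For Kcna2, Kcnk1, Kcnh1, Kcnj3, Kcnk13, Kcnj4, Kcnj12, Kcnh2 and Kcnmb3 only the inner start is listed. In these genes the outermost end is a bound of the gene and not a listed start. Kcna2, the axonal Kv1.2 channel, stood at 82.0% at its outermost end and at 2.70% (1.52 to 3.81%) at a start 10.7 kb further in. Kcnk2 (TREK-1) stood at 83.7% at its end and at 9.21%, 6.21% and 2.32% at starts 58.6, 59.1 and 59.4 kb inside. Kcnk1 (TWIK-1) stood at 6.86% only 1.45 kb inside, Kcnh1 at 12.6% 1.63 kb inside, and Kcne3 at 19.6% 2.18 kb inside.

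Kcnj3 (GIRK1) and Kcnk13 (THIK-1), too sparse to be tested at their ends, stood at 5.99% at 24.2 kb and at 3.26% at 1.35 kb. Kcnip1 stood at 7.47% at a start 150 kb inside and at 24.9% at one 312.7 kb inside. Kcnj4 stood at 2.02% at 7.27 kb, and Kcnab1 at 8.70% at 160 kb, both with low outermost ends.

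The opposite order was found as well. Kcnj12 stood at 2.92% at its end and at 91.0% 43.2 kb inside, Kcnj6 at 11.3% and 92.0% 141 kb inside, and Kcnh2 at 5.63% and 59.9% 22.1 kb inside. Kcnab2 stood at 1.66% at its end and at 76.8% and 61.1% at starts 24.6 and 28.7 kb inside. Among starts more than 1 kb inside, those of Kcnh2 (48.9 to 68.0%), Kcnj16 (41.0 to 66.3%), Kcnab1 at 239 kb (46.8 to 78.6%), Kcne2 (44.2 to 73.4%) and the innermost of Kcnab2 (48.9 to 78.4%) fell on both sides of 50% in different libraries, and the others did not.

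**Figure D3:**
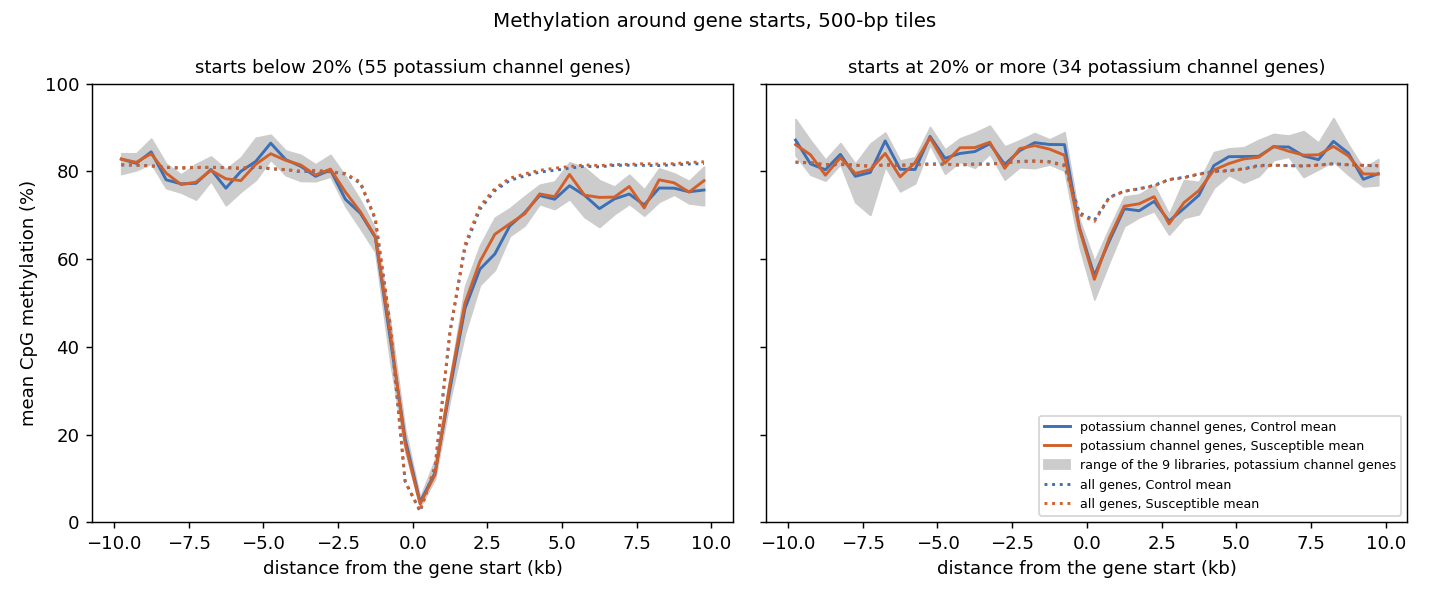
Mean methylation in 500-bp tiles against distance from the gene start, for starts below 20% (left) and at or above 20% (right); solid lines are potassium channel genes, dotted lines all genes tested, and the grey band is the range of the 9 libraries. On the left the lines of the potassium channel genes climb back more slowly downstream than those of all genes, stand higher in the tile just upstream, lie lower from 0.5 to 2.5 kb upstream, and cross the lines of all genes beyond that.

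Around the 55 low starts the methylation level recovered later inside the gene than it did over all genes. In the tile just downstream of the start the Control mean was 4.599% and the Susceptible mean 4.16%, against 2.46% and 2.59% over all 11179 low starts. Between 1.5 and 2 kb downstream the potassium channel genes stood at 48.7% and 49.96%, with the 9 libraries at 43.0 to 53.7%, while all genes stood at 62.6% and 63.2%, with libraries at 61.5 to 64.7%. Between 4.5 and 5 kb the values were 73.6% and 74.2% against 80.2% and 80.7%. Upstream, potassium channel genes stood higher in the tile just before the start, at 19.0% and 17.8% against 9.298% and 9.16% over all genes. From 0.5 to 2.5 kb upstream they stood lower, at 41.8% and 43.2% against 44.7% and 45.01% between 0.5 and 1 kb, and at 70.4% and 70.8% against 77.3% and 77.6% between 1.5 and 2 kb. Beyond 2.5 kb upstream they stood higher in some tiles and lower in others, at 86.4% and 84.0% against 80.6% and 80.6% at 4.75 kb, and at 77.2% and 77.0% against 80.7% and 80.9% at 7.75 kb. No test was made of these profiles. The median length of the run of 500-bp tiles below 20% around a low start was 2000 bp for potassium channel genes and 1500 bp for all genes. The longest runs, of 4 kb, were at Kcnn1 and Kcnk9, and 3.5 kb were found at Kcnq5, Kcna1 and Kcng3. None of the 55 reached 5 kb, which 2.09% of all low starts did.

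**Figure D4:**
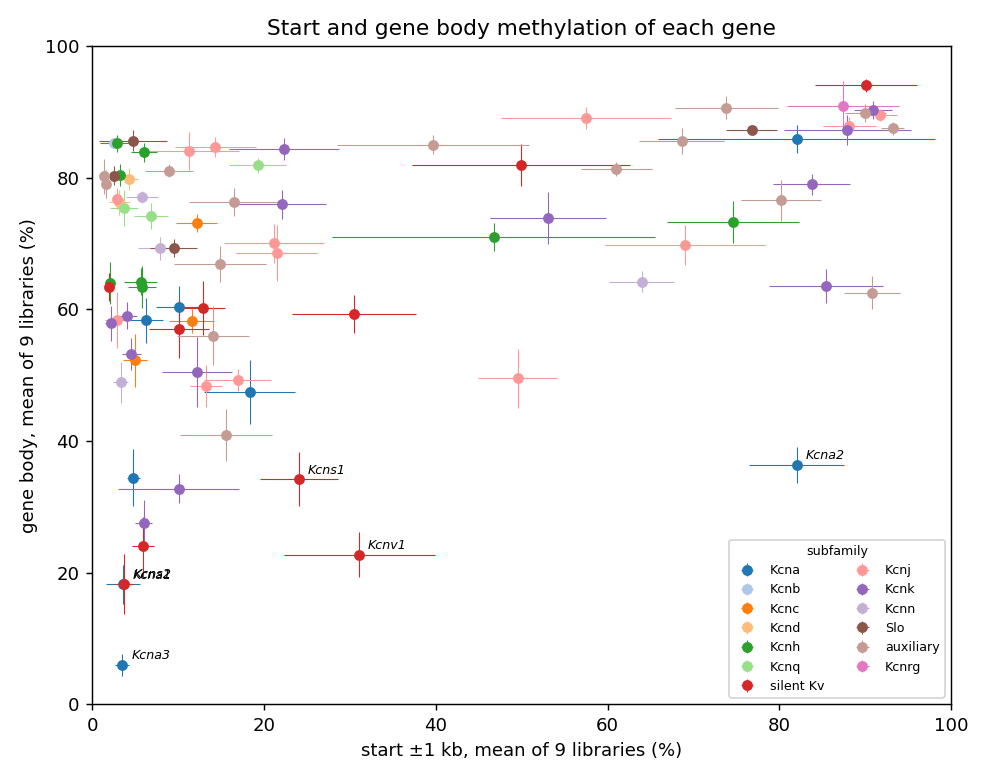
Gene body level against start level for 85 potassium channel genes, each the mean of 9 libraries with bars of 1 SD, coloured by subfamily. Bodies run from 5.98% (Kcna3) to 94.0% (Kcnv2), and the bodies drawn up to that of Kcna2 belong to genes with low starts, apart from Kcna2 (start 82.0%, body 36.4%), Kcnv1 (31.1% and 22.7%) and Kcns1 (24.1% and 34.2%).

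Gene bodies were mostly methylated. The median body stood at 70.5%, and at 72.4% over 19329 genes. Only 3 bodies were below 20%, those of Kcna3 (5.98%), Kcna1 (18.2%) and Kcns2 (18.3%), each short, with lengths of 1968, 9339 and 6053 bases. Low levels above that limit were found in Kcnv1 (22.7%), the silent subunit gene Kcnf1 (24.0%) and the leak channel gene Kcnk15 (27.5%). The highest were Kcnv2 (94.0%), Kcnrg (90.9%), Kcnmb1 (90.6%), Kcnk18 (90.2%) and Kcne4 (89.8%). Pooled by subfamily, Kcna was lowest at 38.5 to 45.7% over the libraries, followed by Kcnc at 52.1 to 57.5% and the silent subunits at 55.6 to 60.0%. Among subfamilies of 2 or more genes Slo was highest at 78.0 to 81.4%. The single gene Kcnrg read 85.2 to 97.2%. The body of Kcnmb1 lies wholly inside that of Kcnip1, so both share its CpGs, and Kcnj13 lies inside Gigyf2.

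Low stretches also lay deep inside the genes. Of 4124 tiles of 1 kb that lay more than 5 kb from the start and held at least 5 CpGs, 181 (4.39%) were below 50%, against 3.48% of such tiles over all genes. They fell in 50 of the 80 genes that had such tiles and formed 141 stretches. The 4 longest, of 4 tiles each, were in Kcnn2 (mean 8.09%, 291 kb from the start), Kcnj4 (13.7%, 7.51 kb), Kcnk2 (17.8%, 59.8 kb) and Kcnab1 (29.6%, 161 kb). Those of Kcnj4, Kcnk2 and Kcnab1 lie at inner starts of the RefSeq table, and Kcnn2 has no start in that table.

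Kcnq1 holds an imprinted control region inside its body, where the promoter of Kcnq1ot1 is methylated on the maternal copy. The tiles 189 and 190 kb from the Kcnq1 start, with 63 and 38 CpGs, stood between 47.9% and 69.7% in each of the 9 libraries. The next tile inward, with 7 CpGs, stood at 87.3 to 98.3%, and the tile before them, with 5 CpGs, ranged from 0% in Control 5 to 76.9%. Such levels were not confined to this region: the tiles 234, 258, 262 and 322 kb from the start stood between 44.97% and 79.7%.

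The comparison that the labels set up is Control against Susceptible. Since the handling of Control mice is not stated, exposure to defeat and the response to it cannot be told apart here. No potassium channel gene passed the test. A logistic model on methylated and unmethylated calls, with the spread between libraries as its error and Benjamini-Hochberg adjustment over all genes, called 0 of 89 starts (0% of all 18709 genes) and 0 of 92 bodies (0% of all 19329 genes). The smallest adjusted p of a member was 0.927 at starts and 0.974 in bodies. The median difference, Susceptible minus Control, was -0.15 percentage points at starts (-0.06 over all genes) and -0.30 in bodies (-0.42 over all genes). The difference was under 5 points in 82 of 89 starts and in 92 of 92 bodies.

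Before adjustment, 4 of 89 starts were below a p of 0.05, and 4.90% of all genes were. Of these, 3 were higher in Susceptible, with Kcnk7 and Kcne2 among them, and Kcnk10 was lower. In 1 of 89 starts, Kcnmb3, the groups did not overlap, and 374 of all 18709 genes (2%) were of that kind. In bodies, 4 of 92 were below 0.05, against 4.98% of all genes, and 2 of 92 did not overlap, against 1.59%. These shares are near those of all genes.

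**Figure D5:**
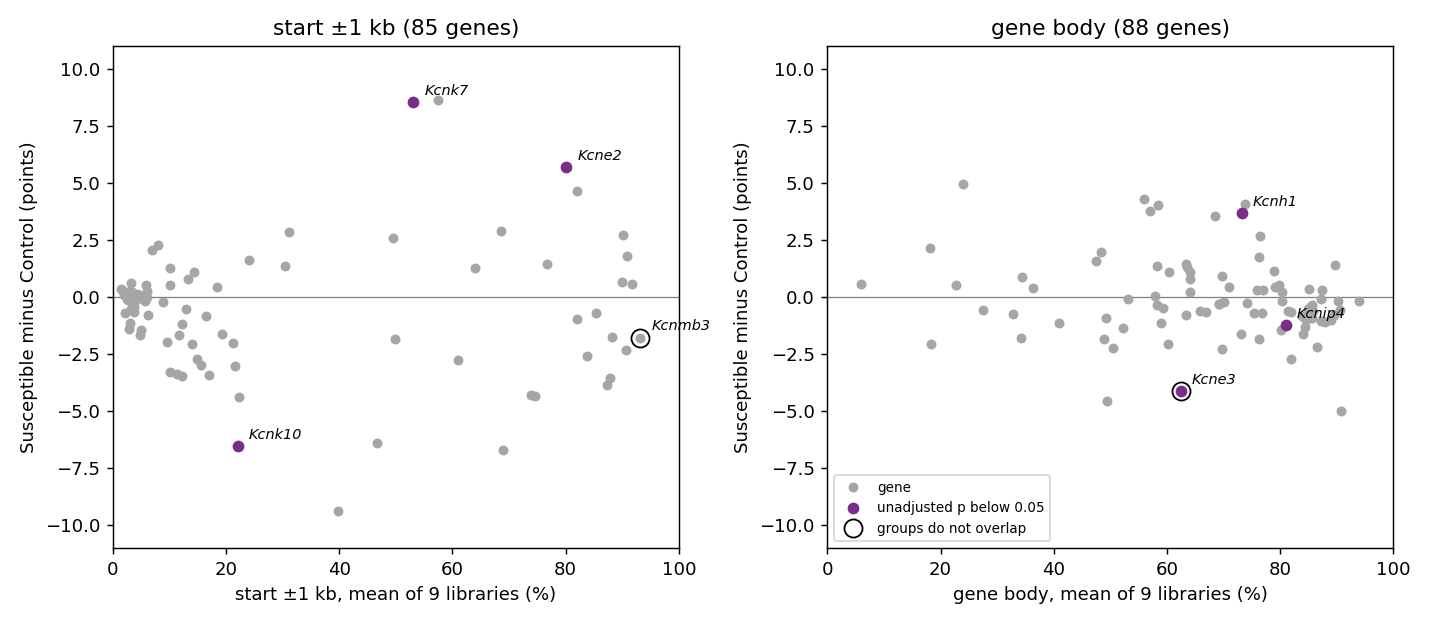
Difference in level between the groups (Susceptible minus Control, in percentage points) against the mean level for 85 starts (left) and 88 bodies (right); each dot is a potassium channel gene, purple marks an unadjusted p below 0.05 and a ring marks groups that do not overlap. None passed after adjustment, and in bodies all differences lie within 5 points.

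Kcnk10 (chr12:98429432-98578213) stood at 19.3, 22.9, 27.2, 23.7 and 31.8% at its start in Control 2, 3, 4, 5 and 8. Susceptible 2, 3, 6 and 7 stood at 16.3, 17.9, 22.8 and 16.8%, and values for other genes follow the same order of libraries. Susceptible 6 was within the Control range and Control 2 was the lowest Control. The difference was -6.52 points (adjusted p = 0.927). At a second start 3.09 kb inside, the means were 6.52% in Control and 8.50% in Susceptible, the other way round.

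Kcnk7 (chr19:5704471-5707984) stood at 49.4, 48.0, 54.4, 48.3 and 46.4% in Control and at 55.4, 49.7, 58.7 and 67.5% in Susceptible. 3 of the 4 Susceptible libraries were above every Control. The difference was 8.52 points (adjusted p = 0.927), and 5.29 points without Susceptible 7.

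Kcne2 (chr16:92292389-92298133), which encodes a subunit best known from stomach and choroid plexus, stood at 83.1, 76.4, 82.5, 73.5 and 72.5% in Control and at 82.2, 84.6, 83.2 and 83.3% in Susceptible. Control 2 and 4 lay with the Susceptible libraries and the other Controls lower, and the SD was 4.96 in Control and 0.971 in Susceptible. The difference was 5.69 points (adjusted p = 0.927). Kcnq5 (chr1:21398399-21962650) had the fifth smallest p, with means of 5.93% and 8.01% and overlapping groups.

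Kcnmb3 (chr3:32465146-32502896) stood at 93.4, 94.8, 93.2, 93.6 and 94.9% in Control and at 92.7, 92.6, 93.2 and 90.4% in Susceptible at its start, a difference of -1.77 points, and of -1.17 points without Susceptible 7. The groups did not overlap, although Control 4 and Susceptible 6 printed the same value after rounding. At the first start that RefSeq lists for it, 10.9 kb inside, the means were 87.0% in Control and 90.3% in Susceptible. The sign of the Kcnmb3 difference therefore depended on whether the gene end or the listed start was read.

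Among bodies, Kcne3 (chr7:100176507-100184869) stood at 61.4, 64.3, 65.0, 64.8 and 66.3% in Control and at 59.7, 60.5, 60.1 and 60.7% in Susceptible. All Susceptible values were below all Control values, and the difference was -4.11 points (adjusted p = 0.974). When only CpGs listed in all 9 libraries were used, it was 0.484 points, on the other side of 0.

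Kcnh1 (chr1:192189144-192510159), the EAG1 channel, read 70.2, 72.9, 71.0, 75.3 and 68.8% in Control libraries, and 74.5, 73.6, 79.7 and 73.5% in Susceptible. Control 5 was inside the Susceptible range, and the difference was 3.67 points (adjusted p = 0.974), and 2.22 points without Susceptible 6. Kcnip4 (chr5:48389503-49525122), the longest gene of the set, read 81.2, 82.1, 80.9, 82.4 and 81.5% in Control libraries, and 80.4, 80.8, 81.1 and 79.3% in Susceptible, a difference of -1.23 points with 1 library in the overlap. Kcnf1 (chr12:17172100-17176888) had means of 21.8 ± 3.04% and 26.8 ± 4.81% (SD), with overlapping groups and an adjusted p of 0.974. Its difference was 4.97 points, and 2.65 points without Susceptible 6.

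Kcnmb2 and Kcnj15 had the largest start differences in size, close to that of Kcnk7. Kcnmb2 read 36.7, 39.7, 56.4, 27.0 and 59.5% in Control libraries, and 39.2, 31.6, 35.8 and 31.3% in Susceptible over 23 CpGs, a difference of -9.38 points, which was -6.24 without Control 4 and -5.47 without Control 8. Kcnj15 read 64.6, 63.9, 56.6, 41.0 and 41.9% in Control libraries, and 68.2, 58.2, 65.1 and 57.3% in Susceptible over 14 CpGs, a difference of 8.63 points, which was 5.46 without Control 5 and 5.71 without Control 8. In both, the Susceptible values lay inside or near the spread of the Control values.

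At starts, Control libraries varied more than Susceptible libraries, as they did over all genes. The SD was larger in Control in 73 of 89 starts (82.0%, against 79.8% of all genes) and in 51 of 92 bodies (55.4%, against 70.2% of all genes). At starts the median SD was 3.37 points in Control and 1.72 in Susceptible, and in bodies it was 2.01 and 2.09. Control 5 was the highest library in 25 and the lowest in 18 of 89 starts, and Control 8 the highest in 22 and the lowest in 20. Over all genes Control 5 was the highest in 25.9% and the lowest in 22.0%, and Control 8 in 19.99% and 20.8%. In bodies Susceptible 7 was the lowest library in 30 of 92 genes, against 25.8% of all genes. Control 5 was the highest in 24, against 28.9% of all genes, and Susceptible 6 in 23, against 12.8%. The median deviation of Susceptible 7 from the middle library was -1.40 points over these bodies and -0.95 over all genes.

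Measures of the libraries moved with the groups. Listed calls were 313475624 to 430312082 in Control and 432409939 to 570984634 in Susceptible, without overlap, and Control 5 and 8 had the fewest CpGs covered on both strands (21.3% and 26.8%). With the log of listed calls in the model, 0 genes passed at starts and in bodies. The differences of Kcnk10, Kcnk7, Kcne2, Kcne3 and Kcnh1 kept their sign in that fit. Since listed calls did not overlap between the groups, it cannot fully separate depth from group. Mitochondrial CpGs read 2.33 to 3.62% methylated in Control and 8.96 to 15.1% in Susceptible. The lowest start, that of Kcnmb4, read 0.311 to 1.89% in Control and 1.02 to 1.97% in Susceptible. In the Kcnmb4 promoter window of 300 bases the means were 0.445% in Control and 1.21% in Susceptible, with overlapping libraries. Starts of 8 oligodendrocyte marker genes pooled to 20.9 to 24.6% in Control and 16.9 to 20.2% in Susceptible, without overlap, while those of 6 microglial genes, at 84.1 to 89.1% and 84.0 to 86.6%, overlapped. The bodies of the same 8 oligodendrocyte genes overlapped, at 69.97 to 73.5% in Control and 68.1 to 72.1% in Susceptible. Pooled starts of 6 astrocyte genes (28.8 to 42.0% and 22.2 to 33.0%), 6 genes of cortical projection neurons (14.6 to 24.7% and 12.8 to 22.2%) and 4 endothelial genes (20.5 to 25.6% and 22.4 to 26.2%) overlapped as well. Starts of 10 of 10 marker genes of striatal projection neurons were low. In bodies these 10 stood at 68.3% and 68.9% in Susceptible 6 and 7 and at 59.4 to 63.3% in the other libraries. Apart from listed calls, the part of these measures in the values of Kcnk10, Kcnk7, Kcne2, Kcne3 and Kcnh1 was not tested. In bulk tissue a change in the mix of cells and a change within cells cannot be told apart.

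Tiles of 1 kb across all autosomes, an analysis added after the data had been seen, gave no call either. In potassium channel genes with 1 kb on each side, 4850 tiles were tested and 0 passed after adjustment over 1033962 tiles, of which 0% were called. Before adjustment 231 (4.76%) were below 0.05, 146 of them higher and 85 lower in Susceptible, against 4.37% of all tiles, of which 22547 were higher and 22666 lower. Kcnh1 alone held 22 of the 231, out of its 200 tested tiles (11%), and Kcnma1 held 17, out of 396 (4.29%). Neighbouring tiles of a gene are not independent. In 66 tiles (1.36%) the groups did not overlap, against 1.56%. In the tile 1.06 kb upstream of Kcnj12 the means were 71.3 ± 11.7% and 45.9 ± 7.90% (SD), and in one 2.34 kb inside Kcnj2 they were 32.1 ± 10.5% and 60.8 ± 13.9% (SD), both with an adjusted p of 0.997. These tiles were singled out after their values were seen.

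Genes that work with potassium channels were examined with the same fit. Of 22 partner genes without a Kcn symbol, 0 passed after adjustment in either window. Before adjustment 1 start was below 0.05 (4.90% of all starts were), that of Adam22, a synaptic and axonal partner of Kv1 channels, with means of 4.58% and 7.49%. In bodies, where 4.98% of all genes were below 0.05, there were 2 of 22, among them Lrrc38 (67.4% and 60.5%, without overlap), an auxiliary subunit of the large-conductance channel. Of 24 sodium, calcium and HCN channel genes, 0 passed after adjustment, 0 starts were below an unadjusted 0.05, and 5 of 24 bodies were, against the 4.98% of all genes. Among these 5, Scn3a, Cacnb4 and Cacna1i were higher in Susceptible by 2.59, 2.43 and 1.73 points, and Cacna2d1 differed by -2.9997 points.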

How the data were processed

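Whole-genome bisulfite libraries from accumbens punches (5 Control, 4 Susceptible) were prepared using a Zymo Pico Methyl-seq kit, per the labels' protocols. The submitters' processing notes name Bismark, Bowtie, Picard and mm10, with no versions. Per the file headers, the deposited files give for each cytosine the coverage as a count of calls and the percent read as methylated and unmethylated. They list cytosines with at least 10 calls, and methylated counts were recovered from both columns.

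Calls of both strands of a CpG were summed over each gene body and over the start with 1 kb on each side, using gene bounds from RefSeq (GRCm38.p6). No strand was given for 24 members, for which the CpG-richer end served as the start. Genes needed 3 CpGs and 20 calls or more in each library and were fitted by a quasi-binomial logistic model with group as the only term. Its Pearson dispersion, not below 1, was moderated with the empirical Bayes formula of limma, followed by an F test with Benjamini-Hochberg adjustment over all genes. The fit was also run on simulated data. The outcome is not given here, so nothing is stated on how small a difference it could call. The spread is between these libraries only. Python 3.11.15, numpy 2.4.6, pandas 2.3.3, scipy 1.17.1, R 4.3.3 and limma 3.58.1 were used.

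Members and gene lists were chosen with earlier results of these data known. The rule for named genes took the 5 smallest p-values in each window, genes whose groups did not overlap, the 5 highest and 3 lowest levels, the 3 largest SDs, and a list of channels known in striatal, cardiac or glial excitability. Other genes named, such as those with the largest differences, were chosen after their values were seen. Tiles and inner starts were added after the data had been seen. Alternatives changed the window, CpG filters, weights, model, depth covariate and libraries. Values of some genes in these sets are not reported here and are left out of the figures, while counts and pooled levels include them.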

Additional observations from a re-analysis of the deposited data

Results flagged for a closer look

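In 20 of 246 sets of values (the named genes and the subfamilies, in each group and window), 1 library stood apart by a gap that is large against the range of its group. Chance flags about 1 in 20 sets that are independent and not chosen for their values, whereas some of these genes were named for their large SD and the subfamilies contain named genes. Of these, 7 were Control 5, 8 Susceptible 7, 2 Control 8, 2 Susceptible 6 and 1 Control 2.

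At starts, Control 5 read 40.1% in Kcna10 (85.7 to 92.6% in the other Controls), 94.2% in Kcna2 (77.5 to 81.9%), 26.8% in Kcnj6 (8.398 to 10.5%) and 7.75% in Kcnq3 (2.18 to 3.46%). Control 8 read 89.98% in Kcnh6 (30.5 to 46.1%) and 14.5% in the pooled silent subunits (11.9 to 12.4%). Susceptible 7 read 5.24% in Kcna1 (2.87 to 3.23% in the other Susceptible libraries), 36.9% in Kcng4 (52.1 to 54.0%), 5.51% in Kcnt1 (9.13 to 9.58%) and 7.26% in the pooled Kcnq subfamily (8.47 to 8.71%). Susceptible 6 read 12.3% in the pooled Kcnn subfamily (15.6 to 16.2%).

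In bodies, Control 5 read 60.2% in Kcnj11 (67.7 to 69.8%), 73.6% in Kcnj12 (77.6 to 78.3%) and 85.2% in Kcnmb4 (79.2 to 80.4%), and Control 2 read 53.4% in Kcnj8 (48.1 to 49.6%). Susceptible 7 read 71.3% in Kcnd3 (76.4 to 76.7%), 61.8% in Kcnj3 (66.3 to 66.9%), 76.9% in Kcnj6 (84.9 to 85.5%) and 86.3% in Kcnmb1 (91.5 to 91.7%). Susceptible 6 read 79.7% in Kcnh1 (73.5 to 74.5%).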

How the results depend on the processing

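No gene passed the adjusted p in any setting run. Of the differences of named genes, 230 values kept their sign and 2 did not: Kcnmb3 at the first listed start (3.34 points, adjusted p = 0.945) and the Kcne3 body on CpGs listed in all 9 libraries (0.484 points, adjusted p = 0.9899). The cause of these 2 reversals was not tested. The 230 values are not independent checks. Limma on the logit and the model without moderation change the test and not the levels, so no sign could change there. Many other settings leave out 1 library and share the rest. Several of these genes were also named for their difference. Sizes moved more than signs. Over all settings the start differences ranged from -7.96 to -2.04 points in Kcnk10, 3.87 to 11.7 in Kcnk7, 2.37 to 7.07 in Kcne2 and 0.630 to 3.68 in Kcnq5. The body differences ranged from 1.52 to 7.69 in Kcnf1, 2.22 to 4.59 in Kcnh1 and -2.07 to -0.282 in Kcnip4.

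At starts, 500 bp on each side gave 8 high genes. The pooled levels of subfamilies of 2 or more genes ran from 1.11 to 18.4% (3.06 to 25.3% with 1 kb). With 2 kb there were 38 intermediate genes, levels from 11.6 to 41.5%, 0 subfamilies with every member low (4 with 1 kb) and 2 genes below an unadjusted 0.05 (4.879% of all genes tested). That last count was 4 in the reported fit (4.90% of all genes), 7 on CpGs listed in all libraries (5.587%), 1 with equal weights (5.602%) and 0 with limma on the logit (4.11%). The highest such pooled level was 22.5% on CpGs listed in all libraries. Starts without overlap numbered 0 with the first listed start (1.935% of all genes), with CpGs listed in all libraries (2.079%) and with at least 20 calls (2.001%), and 3 of 90 without Control 5 and 8 together, where the share of all genes was 7.324%.

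In bodies, leaving out the 1 kb next to the start gave 7 genes below 0.05 (3.986% of all genes, against 4.98% otherwise) and 0 low bodies. The pooled levels of subfamilies of 2 or more genes then ran from 55.6 to 82.7% (43.0 to 80.05% otherwise). CpGs listed in all libraries gave 2 genes below 0.05 (4.948% of all genes), 0 without overlap (1.724%) and a highest such pooled level of 78.6%. Limma gave 2 genes below 0.05 (4.392%), equal weights gave 1 without overlap (1.707%), and leaving out Control 5 and 8 gave 5 without overlap, where the share of all genes was 5.861%. The mean low stretch was 1836 bp, 2136 bp with tiles below 30% and 2091 bp with tiles of 1000 bp.

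Leaving out 1 library gave 2 to 6 starts below 0.05 (2 without Control 8 or Susceptible 3, 6 or 7) and 1 to 3 without overlap, with shares of all genes from 3.665 to 6.175% and from 3.175 to 4.275%. In bodies it gave 3 to 8 (8 without Control 5 or Susceptible 7) and 2 to 6 (6 without Susceptible 6, 5 without Control 5, 4 without Control 2), with shares of all genes from 4.08 to 6.167% and from 2.88 to 4.105%.

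Numbers 2 and 3 occur in both groups, but deviations of same-numbered libraries were hardly correlated (r from -0.0266 to 0.0183). A replicate block could use only Control 2 and 3 and Susceptible 2 and 3. In that fit 4 starts and 5 bodies were below an unadjusted 0.05 (5.543% and 4.17% of all genes) and 0 passed. So few libraries leave little from which to estimate the spread, so no conclusion is drawn from it. Depth limits starts with few CpGs, where a library could hold as few as 105 calls.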
